A study of Mus musculus with 9 samples.

Results

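The replication-dependent histone genes encode the core histones H2A, H2B, H3 and H4 that package newly copied DNA. They were taken from the deposited table as every gene whose symbol starts with H2ac, H2bc, H3c or H4c followed by a digit, or is H1-1 to H1-6. This rule found 55 of the 16636 genes listed: 16 H2A, 16 H2B, 12 H3 and 11 H4 genes. No gene carries a symbol from H1-1 to H1-6, and the linker histone genes are listed as H1f1 to H1f5 and are not among the 55. In an older naming, 46 of the genes are called Hist1 and 9 Hist2, after the gene clusters in which they lie.

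RNA came from E14 cells, an established line of mouse embryonic stem cells of wild-type genotype, kept in naive conditions with 2 kinase inhibitors (2i, PD0325901 and CHIR99021) and LIF. There were 3 groups of 3 libraries: untreated cells, cells given a luciferase siRNA as control (siLuc) and cells given an siRNA to Stag3 (siStag3), a gene for a cohesin subunit. The siRNA treatments lasted 48 hours and used 50 pmol per transfection with a lipid reagent, repeated on the day after seeding, whereas untreated cells received neither. Column names of the table also give a set number and an experiment number, whose meaning the sources used here do not state; each group had 2 libraries of Set 1 and 1 of Set 3. The series calls the samples biological replicates, but nothing ties a column to a numbered replicate or says which cultures were shared.

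Most animal mRNAs end in a poly(A) tail, but replication-dependent histone mRNAs normally end just after a short stem-loop, which is bound by the stem-loop binding protein SLBP and cut with the help of the U7 small nuclear ribonucleoprotein. Their synthesis is tied to S phase through the coactivator NPAT, and they are degraded when DNA synthesis stops. The libraries were made with a KAPA mRNA kit, which captures RNA by its poly(A) tail. The counts therefore describe histone RNA that was retained in such a selection, and not the whole pool of histone mRNA.

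The stem-loop is shown here because it separates these transcripts from ordinary mRNAs. The histone stem-loop was searched for on the sense strand of the GENCODE M21 transcripts, with a stem of 6 bases whose arms pair fully and a loop of 4 bases. In the sequences below the capitals mark the stem, and the loop and up to 5 bases on each side are in lower case. H2ac24 and H2ac23 are near-identical copies, H2bc3 and H3c3 recur in the comparisons, and H4c9 is the highest H4 gene.
H2ac24: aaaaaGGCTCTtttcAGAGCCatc
H2ac23: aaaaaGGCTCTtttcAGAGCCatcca
H2bc3: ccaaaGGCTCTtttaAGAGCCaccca
H3c3: aaaaaGGCTCTtttaAGAGCCaccta
H4c9: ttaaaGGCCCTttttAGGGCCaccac
H4c2: caaaaGGTCCTtttcAGGACCactca

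A stem-loop of this form was present in transcripts of 38 of the 55 histone genes (69.1%), against 51 of the 16604 genes of the table that M21 holds (0.307%). The 13 others were Bap1, Ddx43, H1f2, H1f3, H1f4, H2aw, H2ax, H2bu2, H2bw2, H4f16, Olfr1328, Syncrip and Trim17. The stem GGCTCT was carried by each of the 28 H2A, H2B and H3 genes with a match, whereas the 10 H4 genes with a match had GGCCCT (8 genes) or GGTCCT (2 genes). The transcript model of H2ac24 ended 3 bases after the stem-loop. Of the others, 21 ended within 100 bases of it, from 11 bases in H2ac4 to 74 in H3c3, and 16 ran on for more than 100 bases. Models of both kinds thus extend past an end just after the stem-loop. H2ac12, H2ac10 and H2ac13 are among the 17 genes without a match, which says only that the stem-loop is not in their M21 models.

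Copies of these genes share most of their sequence, which limits what a count for 1 gene means. Of each gene's 31-base subsequences, a median of 60.2% were found in another of the 55 genes, and the share ran from 1.27% in H2bc21 to all of them in H2ac19. In 17 genes it exceeded 80%. H2ac24 shared 93.4% of its 31-base subsequences with H2ac23, H2ac12 shared 88.0% with H2ac7, H2ac10 shared 85.9% with H2ac7, and H2ac13 shared 84.8% with H2ac12. Sharing linked all genes of a class to each other, giving families of 16, 16, 12 and 11 genes. How reads that fit several copies were counted is not given in the sources used here. In M21, 21 of the 55 genes overlap another gene, and 1 of them, H2bc6, overlaps a gene of the table, the linker histone gene H1f4, on the same strand.

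The libraries held between 29332436 and 44527534 counts each. A floor of 3 counts, below which a value was not told from 0, equalled 0.0650 to 0.0990 CPM, the count relative to the library total after scaling by TMM factors. Stag3, the targeted gene, had 13.5, 15.2 and 15.6 CPM in the siStag3 libraries, 22.5, 23.3 and 26.6 in the siLuc libraries and 24.1, 24.3 and 28.6 in the untreated ones. The 7 markers of naive stem cells summed to between 4371 and 4811 CPM in every library. The 4 primitive endoderm markers summed to between 0.590 and 1.09 CPM and the 3 fibroblast markers to between 1.30 and 2.38 CPM. None of 12 RNAs that are made without a poly(A) tail, such as Rmrp and Terc, is listed in the table. Whether such genes were counted at all is not given, so their absence does not test the poly(A) selection.

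Histone counts in these libraries were for the most part listed under a single H2A gene, H2ac24. It shares 93.4% of its 31-base subsequences with H2ac23, so the origin of these counts in 1 gene was not tested. The 55 genes held 48568 counts over the 9 libraries, of which H2ac24 alone had 35582 (73.3%), and H2ac24, H2ac12 and H2ac10 together had 87.9%. In the other direction, 34 genes had fewer than 100 counts over all 9 libraries, the median gene had 84, and 20 genes were at 0 in at least 1 library. Relative to transcript length, H2ac24 (ENSMUSG00000094777) was at 235 CPM per kb, 5.41-fold above H2ac12 (ENSMUSG00000069302) at 43.4 CPM per kb. Next in order were H2ac10 (ENSMUSG00000061991) at 12.7, H2ac13 (ENSMUSG00000071516) at 4.08 and H2bc12 (ENSMUSG00000062727), the highest H2B gene, at 2.22 CPM per kb. H2ac23, H4c9, H2bc4, H2ac7 and H2ac8 followed at 1.76, 1.54, 1.30, 1.20 and 1.11 CPM per kb. H3c3 (ENSMUSG00000069310), the highest H3 gene, was at 1.07 CPM per kb, and the median over all 55 genes was 0.448.

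**Figure D1:**
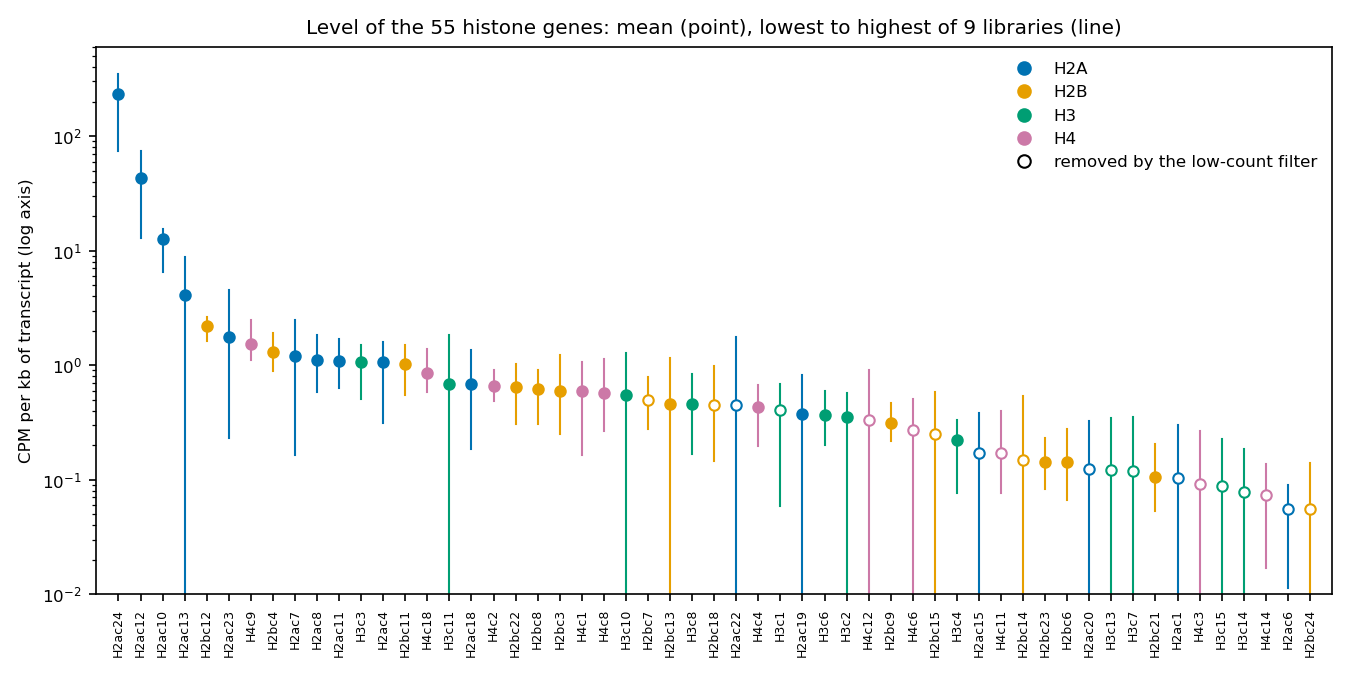
Mean level of each of the 55 histone genes in CPM per kb of its longest transcript on a log axis, with a line from the lowest to the highest of 9 libraries; a line that reaches the axis holds a library at 0. Open points are the 20 genes removed by the low-count filter. H2ac24 lies 5.41-fold above the next gene, and the ranges of most genes below H2bc12 overlap.

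The ranges over libraries show which genes of this order overlapped across libraries. H2ac24 ran from 73.5 to 351 CPM per kb and H2ac12 from 12.8 to 74.1, so that these overlapped only through the lowest H2ac24 library. H2ac12 and H2ac10, from 6.55 to 15.3, also overlapped, and so did neighbouring genes below H2ac13. Within every single library, however, H2ac24 lay above H2ac12 and H2ac12 above H2ac10. By class, the median level was 1.07 CPM per kb for H2A, 0.455 for H2B, 0.359 for H3 and 0.431 for H4. The 22 genes whose models end within 100 bases of the stem-loop had a median of 0.648, those with a longer end 0.197 and those without a match 0.447 CPM per kb. Much of this rests on the division by length, as the median lengths were 496.5, 1079 and 399 bases. Before that division the medians were 0.337, 0.293 and 0.176 CPM.

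Replacement histones are made outside S phase as well, and their mRNAs for the most part carry poly(A) tails. Of 12 such genes listed, only 5 were compared per length, and these lay above every replication-dependent gene except H2ac24 and H2ac12. The rest had means from 0.0436 CPM in H2bu2 to 163 CPM in Macroh2a1, so the statement does not extend to all replacement histones. H2az1, an H2A variant found near promoters, was at 755 CPM per kb. H3f3b and H3f3a, which encode H3.3, were at 229 and 139 CPM per kb, H2ax, the H2A variant phosphorylated at DNA breaks, whose transcripts also hold the stem-loop, at 154, and the linker histone gene H1f0 at 16.4. Among the replication-dependent linker genes, H1f2 was highest with 2.30 to 3.68 CPM per library, and H1f1, H1f3, H1f4 and H1f5 had means of 0.833, 0.642, 0.454 and 0.415 CPM.

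The summed level of the 55 genes varied most within the siStag3 group. It was 182, 153 and 176 CPM in the untreated libraries (Set 1 experiments 1 and 3, Set 3 experiment 5) and 167, 130 and 134 CPM in siLuc (Set 1 experiments 1 and 3, Set 3 experiment 1). In siStag3 it was 161 CPM in Set 1 experiment 1, 59.9 in Set 1 experiment 3 and 229 in Set 3 experiment 5. The lowest and the highest of all 9 libraries were thus both siStag3 libraries, and the 3 groups overlapped. Within Set 1, siLuc was below untreated in both experiments and siStag3 below both. The mean of the siStag3 group was 150 ± 85.2 CPM, beside 144 ± 20.2 for siLuc and 170 ± 15.1 for untreated cells (SD, n = 3).

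**Figure D2:**
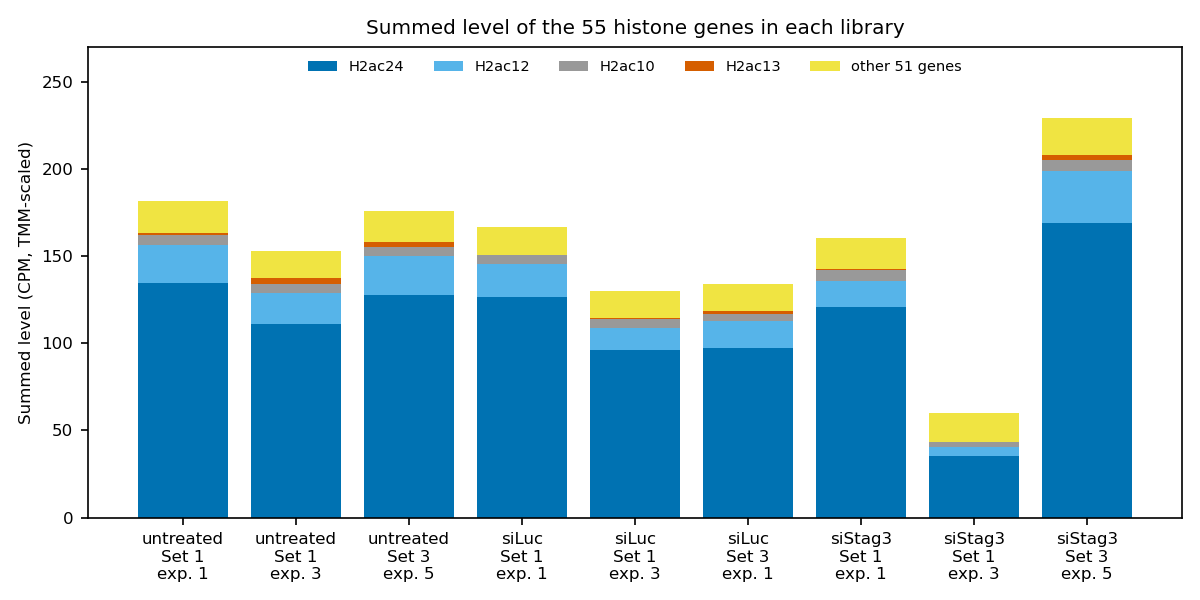
Summed level of the 55 histone genes in CPM for each of the 9 libraries, split into H2ac24, H2ac12, H2ac10, H2ac13 and the other 51 genes (exp., experiment number). The siStag3 library of Set 1 experiment 3 reaches 59.9 CPM and that of Set 3 experiment 5 reaches 229 CPM, while the segment of the other 51 genes stays between 15.1 and 21.2 CPM.

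H2ac24 carried this spread. The siStag3 libraries had 121, 35.4 and 169 CPM, the siLuc libraries 127, 96.4 and 97.5 CPM and the untreated libraries 135, 111 and 128 CPM, in the order given above. The low siStag3 library held 1124 counts (exact Poisson 95% interval 1059 to 1192, which covers counting error only), and the other 8 libraries lay between 96.4 and 169 CPM. Within siStag3, the highest library was 4.77-fold above the lowest, and the other Set 1 library was 3.42-fold above it.

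H2ac12 and H2ac10, the next most abundant histone genes, were low in the same library. H2ac12 was at 14.9, 5.20 and 30.0 CPM in siStag3, against 12.6 to 21.9 CPM in the other groups. H2ac10 was at 5.93, 2.61 and 6.10 CPM, against 4.28 to 5.94 CPM. H2ac7, which shares sequence with both, had 34, 3 and 31 counts in the siStag3 libraries. H2ac24, H2ac12, H2ac10 and H2ac7 were lowest of all 9 libraries in siStag3 Set 1 experiment 3, and H2ac24, H2ac12 and H2ac10 were highest in siStag3 Set 3 experiment 5. Of 19 histone genes with at least 20 counts in a siStag3 library, only these 4 were lowest in the former. Less abundant H2A genes also went the other way: H2ac11 (0.819 CPM) and H2ac18 (0.788 CPM) were highest of 9 there. Without H2ac24, H2ac12, H2ac10 and H2ac13, the H2A genes summed to 3.91 CPM there and to 3.28 to 5.73 CPM over all libraries.

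The H2B, H3 and H4 genes varied less than H2ac24 between these libraries. In siStag3 Set 3 experiment 5 the H2B and H4 sums were the highest of 9 and the H3 sum was below that of 1 untreated library only. Summed over the 16 H2B genes, the level was 6.57, 6.68 and 7.95 CPM in siStag3, with 5.51 to 6.89 CPM in the other groups. The 12 H3 genes summed to 2.39, 2.71 and 3.73 CPM, with 1.98 to 3.81 CPM in the other groups. The 11 H4 genes summed to 3.51, 2.96 and 4.12 CPM, with 3.01 to 3.93 CPM in the other groups. The H4 sum was therefore lowest of 9 in the low H2ac24 library and highest of 9 in the high one, the same order as H2ac24 over a narrower range, and the genes H4c9 and H2bc6 were also highest of 9 in the latter. Leaving out H2ac24, H2ac12, H2ac10 and H2ac13, the other 51 genes summed to 18.2, 16.3 and 21.2 CPM in siStag3, 1.31-fold between the low and the high H2ac24 library. H2ax, which shares 26.5% of the 31-base subsequences of H2ac24, was at 214, 203 and 240 CPM. In the low H2ac24 library the H2B and H3 sums and H2ax lay within the range of the other 8 libraries, and the H4 sum lay just below it.

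**Figure D3:**
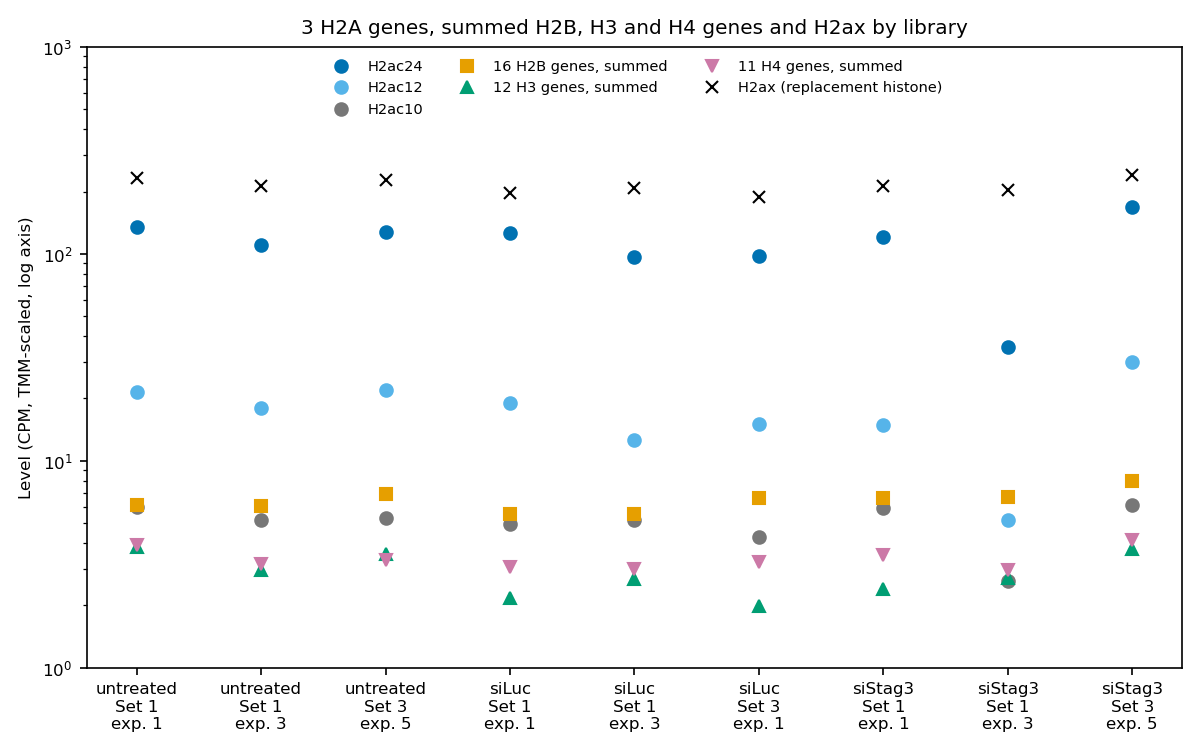
Level in CPM on a log axis of H2ac24, H2ac12 and H2ac10, of the summed H2B, H3 and H4 genes and of the variant H2ax in each of the 9 libraries (exp., experiment number). In siStag3 Set 1 experiment 3 the 3 H2A genes drop to 35.4, 5.20 and 2.61 CPM, while the summed H2B genes are at 6.68 CPM and H2ax at 203 CPM.

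In the low H2ac24 library its closest copy, H2ac23, was not higher than in the other siStag3 libraries. The part of shared reads in that library was not tested. H2ac23 had 43, 11 and 39 counts in the siStag3 libraries, and H2ac23 and H2ac24 together spanned 4.76-fold over the 9 libraries, as H2ac24 alone did (4.77-fold). All 16 H2A genes together were at 148, 47.5 and 214 CPM in siStag3, against 119 to 168 CPM in the other groups. GC content moved in the same direction: in 570 other genes of at least 60% GC, the median deviation from the gene's mean was -0.17 on the log2 scale in the low library, the lowest of 9, and 0.28 in the siStag3 library of Set 3, the highest. It was nearly as low, at -0.14 and -0.13, in the siLuc and siStag3 libraries of Set 1 experiment 1, where H2ac24 was at 127 and 121 CPM. In 47 other genes with transcripts of at most 500 bases it was -0.04 and -0.06. H2ac24 has a GC content of 64.5%, and the part of GC content in the low library was not tested. The mRNA of Slbp was at 154, 158 and 128 CPM in the same 3 libraries and that of Npat at 82.2, 80.4 and 49.1 CPM. In bulk RNA, fewer cells in S phase and less histone RNA per cell cannot be told apart. The part of retention in the poly(A) selection in the low library was not tested either.

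H2ac13 (ENSMUSG00000071516) had its own pattern. It was at 1.35, 3.49 and 3.03 CPM in untreated cells, at 0, 0.607 and 1.89 CPM in siLuc and at 0.674, 0.378 and 3.00 CPM in siStag3. Counts were 48, 118 and 140, then 0, 22 and 60, then 24, 12 and 91. The lowest library was in siLuc and the groups overlapped. On the log2 scale it differed by -1.90 in siLuc against untreated (SE 0.855, edgeR adjusted p 0.217), 0.66 in siStag3 against siLuc (SE 0.929, adjusted p 0.870) and -1.24 in siStag3 against untreated (SE 0.803, adjusted p 0.486). The difference was 1.54 between Set 3 and Set 1 (SE 0.694, edgeR adjusted p 0.131). Over all libraries H2ac13 had 515 counts and H2ac12, which holds 84.8% of its 31-base subsequences, had 5530, and the part of reads shared between them in these values was not tested.

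Near-identical pairs are given with their sums, as the way counts were divided among copies is not known. H2ac19 has no 31-base subsequence that H2ac18 lacks. H2ac19 had 0, 0 and 20 counts in untreated cells, 10, 10 and 11 in siLuc and 14, 0 and 0 in siStag3. H2ac18 had 22, 18 and 5, then 6, 15 and 5, then 5, 25 and 20 counts. Each library with 0 counts for H2ac19 held at least 18 for H2ac18, and the sum of both ran only from 16 to 25 counts. H2ac19 alone spanned 0 to 0.433 CPM and H2ac18 7.27-fold, whereas their sum spanned 1.56-fold.

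H2bc24 was at 0 in 5 libraries, and its copy H2bc23, which shares 98.3% of its 31-base subsequences, was detected in all 9. Their sum ran from 7 to 18 counts. H3c10 and H3c11, which share 85.3%, had a sum that still spanned 6.76-fold, from 6 counts in siStag3 Set 1 experiment 3 to 59 in untreated Set 3 experiment 5. Adding copies therefore narrowed the range in the H2ac18 and H2ac19 pair, and the H3c10 and H3c11 pair kept a wide one.

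**Figure D4:**
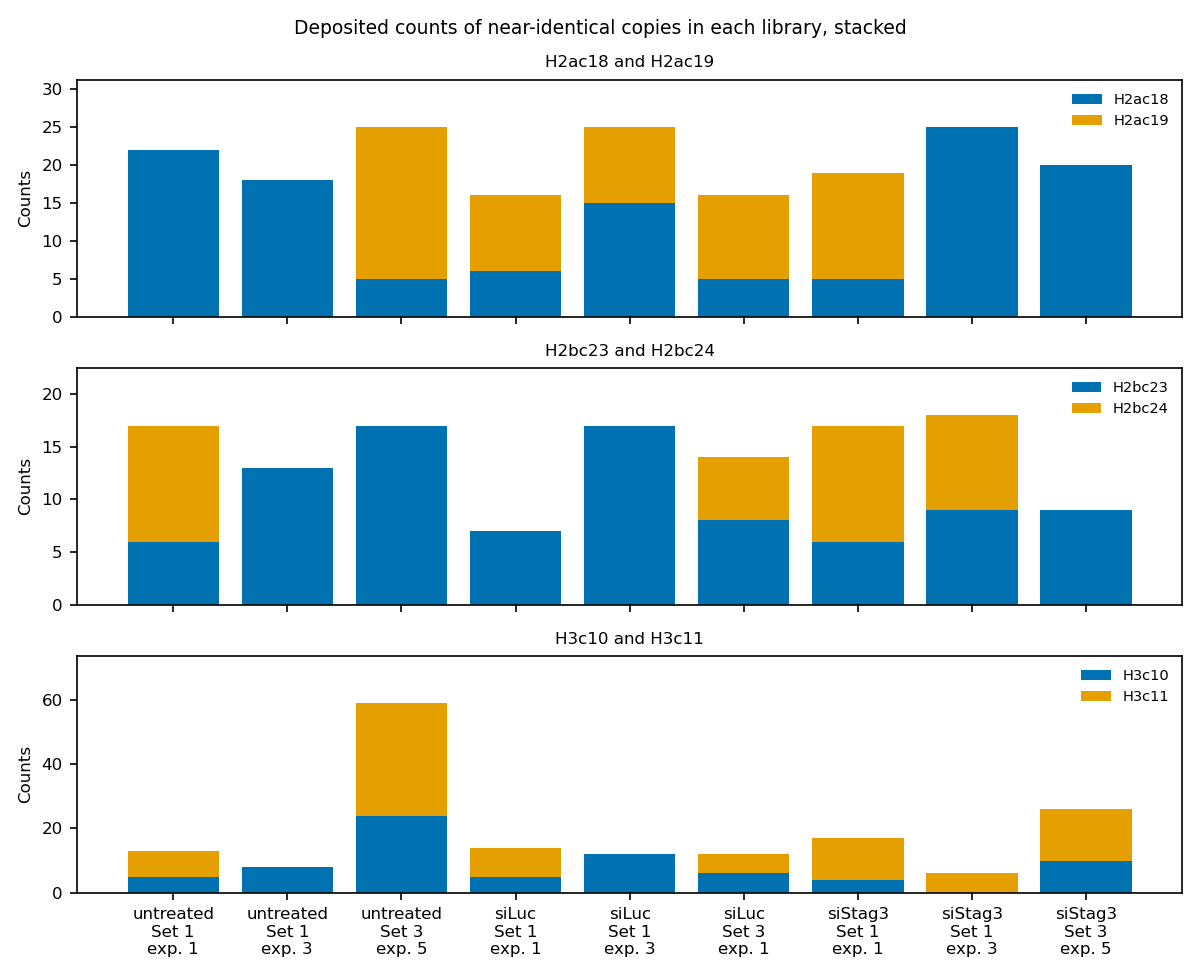
Deposited counts of 3 pairs of near-identical copies, stacked, in each of the 9 libraries (exp., experiment number). H2ac19 is at 0 in 4 libraries, and its sum with H2ac18 stays between 16 and 25 counts.

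Single histone genes were compared between groups in 1 fit of all 14246 genes that passed the low-count filter, with the set as a covariate. Of the 55 histone genes 35 were tested, 11 H2A, 11 H2B, 7 H3 and 6 H4. The filter removed H2ac1, H2ac6, H2ac15, H2ac20, H2ac22, H2bc7, H2bc14, H2bc15, H2bc18, H2bc24, H3c1, H3c7, H3c13, H3c14, H3c15, H4c3, H4c6, H4c11, H4c12 and H4c14, which had 13 to 72 counts over all libraries. The median standard error of a log2 fold change was 0.433 to 0.445 for the tested histone genes in the group comparisons and 0.0903 to 0.0911 for all genes tested, so that the histone genes were compared with less precision than most.

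The effect of lowering Stag3 was addressed by siStag3 against siLuc, where no histone gene passed the threshold. H2ac24 differed by -0.05 on the log2 scale (SE 0.538, edgeR adjusted p 0.985; -0.15 with GC content corrected for), H2ac12 by -0.01 and H2ac10 by 0.02. Over the 35 genes the median was 0.21, with 20 higher and 15 lower, against a median of -0.00479 over all genes, and 0.13 with a GC correction. In the edgeR test 0 of 35 genes had an adjusted p under 0.05, where 0.0281% of all genes did (0.0% in the fit without the set). An unadjusted p under 0.05 was found in 6 genes, all 6 higher in siStag3, against 7.88% of all genes. DESeq2 gave 1 such unadjusted p, and an adjusted p to only 3 of the 35 genes, none under 0.05. Without its independent filtering all 35 had one, and 0 were called. Without the low H2ac24 library the median was 0.41 and the difference of H2ac24 was 0.42, with an edgeR adjusted p of 0.596.

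The 3 histone genes of smallest p in this comparison were H2bc13, H2bc6 and H3c3. H2bc13, an H2B gene that shares 88.6% of its 31-base subsequences with other histone genes, had 0, 0 and 9 counts in untreated cells, 0, 0 and 7 in siLuc and 13, 14 and 11 in siStag3. All siStag3 libraries lay above all others; the zeros were all in Set 1, and in Set 3 the counts were 9, 7 and 11. Its fitted log2 difference was 2.54 (SE 0.874, edgeR adjusted p 0.486), which rests on the 4 libraries at 0 and is no bound. The difference between the sets in this contrast had an edgeR adjusted p of 0.101.

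H2bc6, which overlaps H1f4, was at 0.318, 0.166 and 0.252 CPM in siLuc and at 0.506, 0.378 and 0.693 CPM in siStag3, without overlap of these groups. The log2 difference was 1.09 (SE 0.397, edgeR adjusted p 0.513). H3c3 had 0.318, 0.579 and 0.378 CPM in siLuc, 0.730, 0.599 and 0.924 CPM in siStag3 and 0.953, 0.798 and 0.780 CPM without transfection. All siLuc libraries were below all others. It differed by 0.79 in siStag3 against siLuc (SE 0.309, edgeR adjusted p 0.545). In all, 4 genes had groups that did not overlap in this comparison: H2bc13, H2bc6, H3c3 and H2bc21, all higher in siStag3. Among all genes tested 6.59% had groups that did not overlap.

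Transfection with a control siRNA was addressed by siLuc against untreated, where again no histone gene passed. H2ac24 differed by -0.21 (SE 0.529, edgeR adjusted p 0.838), or by -0.00826 when GC content was corrected for. The median of the 35 genes was -0.18, with 14 higher and 21 lower, against -0.00242 for all genes, and it was -0.00826 with the GC correction. In the edgeR test 0 of 35 genes were called, against 4.2% of all genes (0.00702% without the set). An unadjusted p under 0.05 was found in 2 genes, both lower in siLuc, against 27.8% of all genes. DESeq2 gave 2 such unadjusted p, and an adjusted p to only 3 of the 35 genes, none under 0.05. Without its independent filtering it called 0 of 35.

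Smallest in p here were H3c3, H4c4 and H2bc3, all lower in siLuc. H3c3 differed by -0.96 (SE 0.297, edgeR adjusted p 0.0720), and it passed when only the 6 libraries compared were fitted (adjusted p 0.0471) and without the siStag3 library of Set 3 (adjusted p 0.0377). H4c4 was at 0.757, 0.561 and 0.542 CPM in untreated cells and at 0.223, 0.524 and 0.315 CPM in siLuc, a log2 difference of -0.78 (SE 0.349, edgeR adjusted p 0.166). H2bc3 differed by -0.80 (SE 0.396, edgeR adjusted p 0.204). H3c3, H4c4, H4c2 and H2ac10 had groups that did not overlap, 4 of 35 genes against 19.9% of all genes tested, and H4c2 was higher in siLuc.

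siStag3 against untreated combined both, and shares its libraries with the other comparisons. H2ac24 differed by -0.26 (SE 0.534, edgeR adjusted p 0.836), or by -0.16 with the GC correction. The median of the 35 genes was 0.02, with 18 higher and 17 lower, against -0.00561 for all genes. In the edgeR test 0 of 35 genes were called, against 2.53% of all genes (0.014% without the set). An unadjusted p under 0.05 was found in 4 genes, all higher in siStag3, against 17.0% of all genes. DESeq2 gave 2 such unadjusted p, and an adjusted p to only 7 of the 35 genes, none under 0.05. Without its independent filtering all 35 had one and 1 was called, H2bc13 (DESeq2 adjusted p 0.0155).

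H2bc21, H2bc13 and H4c9 had the smallest p in that comparison. H2bc21 shares the least sequence with other histone genes (1.27%). It had 5, 7 and 8 counts in untreated cells, 8, 6 and 9 in siLuc and 12, 17 and 12 in siStag3, and the siStag3 libraries lay above all others. It was higher by 1.27 on the log2 scale (SE 0.400, edgeR adjusted p 0.118) than in untreated cells and by 0.85 (SE 0.389, adjusted p 0.635) than in siLuc. H2bc13 differed by 2.53 (SE 0.834, edgeR adjusted p 0.143), and it passed in Set 1 alone (adjusted p 0.0230) and without the siStag3 library of Set 3 (adjusted p 0.00346). H4c9 was at 0.953, 0.916 and 1.02 CPM in untreated cells and at 1.24, 1.10 and 1.81 CPM in siStag3. It differed by 0.52 (SE 0.204, edgeR adjusted p 0.219). These 3 genes, H2ac8 and H4c2 had groups that did not overlap, 5 of 35 against 10.0% of all genes tested.

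**Figure D5:**
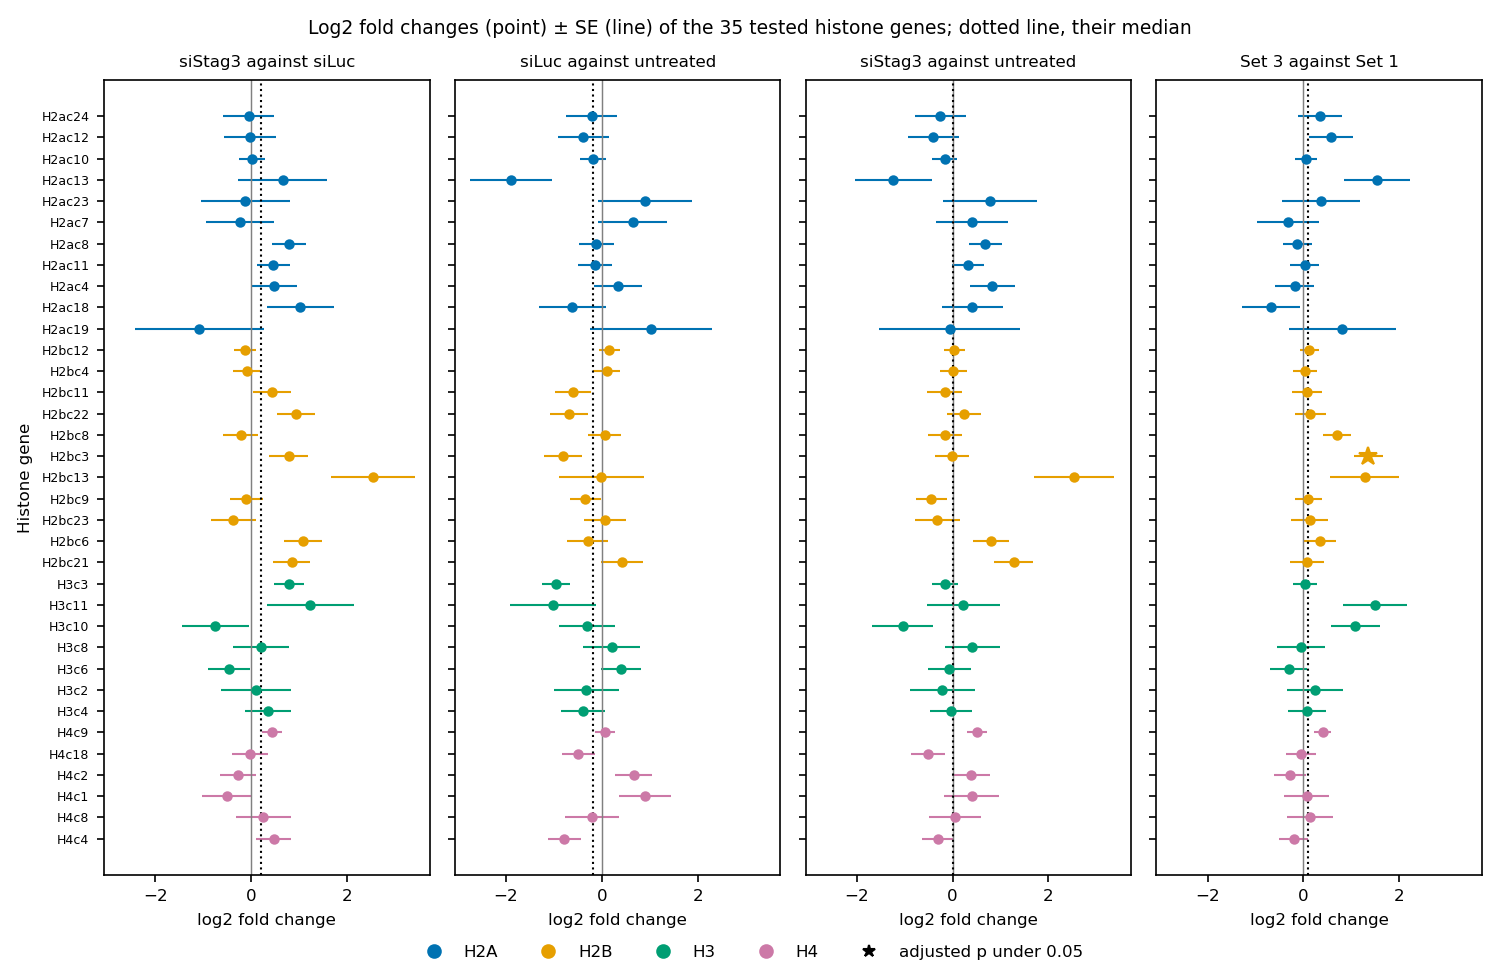
Log2 fold change of each of the 35 tested histone genes (point) with its SE (line) in 4 comparisons, with the median as a dotted line and classes in colour. A star marks an adjusted p under 0.05, which H2bc3 reaches between the sets (1.36) and no gene reaches between groups.

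The sets differed in 1 histone gene. H2bc3 (ENSMUSG00000075031), an H2B gene, had 11, 6, 4, 5, 10 and 5 counts in the 6 libraries of Set 1 and 27, 11 and 19 in the 3 of Set 3, or a mean of 0.198 against 0.519 CPM. On the CPM scale all Set 3 libraries lay above all Set 1 libraries, as they also did for H2bc8. Sets that did not overlap were found in 2 of 35 histone genes and in 26.2% of all genes tested. H2bc3 was higher by 1.36 on the log2 scale (SE 0.310, edgeR adjusted p 0.00350), or by 1.20 when GC content was corrected for (adjusted p 0.00581). In the edgeR test 1 of 35 histone genes was called between Set 3 and Set 1, against 42.7% of all genes. An unadjusted p under 0.05 was found in 3 genes, H2bc3, H2bc8 and H4c9, all higher in Set 3, against 50.9% of all genes. The median over the 35 genes was 0.11, with 26 higher in Set 3 (74.3%, against 50.3% of all genes), and 0.05 with the GC correction.

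When the counts of each class were summed, the H2B family was higher in Set 3 by 0.23 (edgeR adjusted p 0.0320). The 16 H2B genes summed to 7.15 ± 0.707 CPM in Set 3 (SD, n = 3) and 6.07 ± 0.501 in Set 1 (SD, n = 6). H2ac24 differed by 0.36 between the sets (SE 0.460, edgeR adjusted p 0.580), or by 0.09 when GC content was corrected for. For no histone gene did a contrast of groups differ between the sets at an adjusted p under 0.05 in an edgeR test run over all genes. In that test 2, 1 and 4 histone genes had an unadjusted p under 0.05 for siStag3 against siLuc, siLuc against untreated and siStag3 against untreated. The share over all genes is not given for it, so these counts are not set against one. That fit left 3 residual degrees of freedom.

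The genes that make and degrade histone mRNA seldom passed between groups and often did between sets, where 42.7% of all genes passed. Of 22 genes for histone mRNA processing and transcription, none passed in siStag3 against siLuc or siStag3 against untreated. E2f1, an S phase transcription factor, was lower in siLuc than in untreated cells (log2 difference -0.26, SE 0.0607, edgeR adjusted p 0.0341). With GC content corrected for, the difference was -0.09 (edgeR adjusted p 0.288). In siLuc against untreated 4.2% of all genes passed. Between the sets 4 were higher and 6 lower in Set 3, with the smallest p in Npat (-0.53) and Pou2f1 (-0.52), which encodes the octamer-binding factor OCT1. Slbp differed by -0.05 in siStag3 against siLuc (SE 0.0670, edgeR adjusted p 0.866), by 0.12 in siLuc against untreated (adjusted p 0.269) and by -0.14 between the sets (adjusted p 0.0644). Npat differed by -0.05 in siStag3 against siLuc (SE 0.0719, edgeR adjusted p 0.855) and by 0.21 in siLuc against untreated (adjusted p 0.0907).

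Of 13 genes for histone mRNA decay and 15 histone chaperones none passed between groups. Between the sets, where 42.7% of all genes passed, 4 decay genes were higher and 5 lower. Among them were Tut4, a terminal uridylyltransferase (-0.46), and Mif4gd, which binds SLBP (0.41). Of the chaperones 5 were lower in Set 3, among them Atrx (-0.50) and Supt16 (-0.23). Among 11 tested replacement histones, Macroh2a2 was lower in siStag3 than in untreated cells (-0.31, SE 0.0673, edgeR adjusted p 0.0275). In that comparison 2.53% of all genes passed. Between the sets 3 were higher and 2, Macroh2a2 (-0.46) and H3f3b (-0.45), lower. Of 20 S phase genes none passed between groups, while 1 was higher and 11 were lower in Set 3, with the smallest p in Mcm4, a subunit of the replicative helicase (-0.37), and Dtl (-0.44).

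As a description, 5663 genes of at least 5 log2 CPM were ranked by the correlation of their level with the summed histone level over the 9 libraries. The highest were Kdm4a (Pearson r 0.947), Incenp (0.940), Wipf2 (0.934), Ajuba (0.928) and Cdc42bpb (0.910). Without the low siStag3 library the values over 8 libraries were 0.832, 0.675, 0.640, 0.776 and 0.746. Each of the 5 genes was lowest in that library, and its highest library was only 1.16 to 1.42-fold above its lowest.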

How the data were processed

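Poly(A)-selected RNA was sequenced from E14 mouse embryonic stem cells. The authors deposited raw counts per gene, whole numbers with no normalization, for 9 libraries. The table lists no gene with a sum below 9 counts, and 0 columns belong to no sample of the series. FastQC, Salmon, DESeq2 and the build GRCm39 are named per the submitters' processing notes, without roles or versions. If Salmon made the counts, reads of near-identical copies were divided by estimation; this is not given in the sources used here. Column names gave each library's group, set and experiment.

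The test was the quasi-likelihood one of edgeR 4.0.16, run in R 4.3.3 (TMM, filterByExpr, robust fit of group and set over all 9 libraries), with Benjamini-Hochberg adjustment over 14246 genes and a threshold of 0.05. Including the set lowered the biological coefficient of variation from 14.6% to 7.62%. P-values are two-sided. In the main fit they weigh a difference against the spread left between these samples after group and set are fitted, with 5 residual degrees of freedom. The script was tested on simulated data, where changes were placed only in genes with a mean of at least 50 counts. Of the histone genes, 5 reach that mean, so the simulation does not cover the rest. DESeq2 1.42.0 was an alternative, for which no share over all genes is given. The GC correction subtracted each library's median deviation in 20 GC bins.

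Transcript lengths, stem-loops, overlaps and shared 31-base sequences were computed from GENCODE M21, which holds all 55 genes. It is not of the build named for the table, so no coordinates are given.

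Named were H2ac13, the 10 histone genes of highest CPM per kb, the highest of each class, those past the threshold, otherwise the 3 of smallest p. Slbp, Npat and up to 2 called genes per list and comparison were also named. The members and lists were chosen with earlier results of these data known. The near-identical pairs and the class sums were chosen after values were seen.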

Additional observations from a re-analysis of the deposited data

How the results depend on the processing

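Low counts limited the precision: 34 of the 55 genes had fewer than 100 counts over all libraries, 20 were removed by the filter, and 1 library decided several values. Causes of the changes below were not tested. The share of all genes called is given only for the main fit and for the fit without the set. Counts of histone genes from other fits have no such share beside them. Column names give a set and an experiment, not the titles' replicates. A fit with the set and experiment of each column as a block, chosen after seeing the data, left 3 residual degrees of freedom, and the siLuc library of Set 3 was alone in its block. Libraries of 1 block deviated together (r over all genes 0.181 to 0.663), but so did libraries of the same set in different blocks (0.19 to 0.561). Within Set 1 the differences between experiments did not correlate across groups (r -0.0439 to -0.0254). With this block 0 of 35 genes passed in each group comparison. H2ac24 then differed by -0.43 in siStag3 against siLuc, 0.0369 in siLuc against untreated and -0.40 in siStag3 against untreated, and the medians were 0.13, 0.00299 and 0.03.

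For siStag3 against siLuc the number of histone genes past the threshold was 0 in every fit run, of which the planned DESeq2 fit gave only 3 genes an adjusted p. Its median was -0.01 with a mean of at least 50 counts, 0.01 with only the 6 libraries compared, and 0.15 to 0.41 when 1 library was left out. The H2ac24 difference was 0.0213 without the set term, and -0.46 to 0.42 when 1 library was left out. For siLuc against untreated the number was 1 with only the 6 libraries compared (H3c3) and 0 to 1 when 1 library was left out, and H2ac24 ranged from -0.43 to 0.0298. For siStag3 against untreated it was 1 in Set 1 alone and 1 with DESeq2 without independent filtering, an alternative chosen after seeing the data (H2bc13 in both), and 0 to 1 when 1 library was left out: H2ac4 without the untreated library of Set 1 experiment 1 (edgeR adjusted p 0.0475) and H2bc13 without the siStag3 library of Set 3. Its median was -0.26 with a mean of at least 50 counts and -0.18 to 0.12 with 1 library left out, and H2ac24 ranged from -0.68 to 0.20. Between the sets the number was 2 with the DESeq2 Wald test, with or without independent filtering (H2bc3 and H2bc13), 2 without a filter (H2bc3 and H3c14), 0 with a mean of at least 50 counts, which removed H2bc3, and 1 to 3 when 1 library was left out. H2bc3 passed in each of those 9 fits. The median between sets was 0.35 with a mean of at least 50 counts, and H2ac24 ranged from -0.0602 to 0.61 with 1 library left out. The summed level of each library moved by less than the spread between replicates under scaling by total count or DESeq2 size factors.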
